A study of Rattus norvegicus with 4 samples.

Results

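The insulin-like growth factor (IGF) axis was examined in the testis of rats given an antibody against follicle-stimulating hormone (FSH). It was taken as 10 genes: the binding proteins Igfbp1 to Igfbp6, the ligands Igf1 and Igf2, and the receptors Igf1r and Igf2r. Members were all probe sets that the platform annotation pairs with 1 of these symbols and no other, which gave 24 of the 8799 probe sets on the array. They covered 9 of the 10 genes, out of 4736 genes with a probe set of their own. Igfbp4 was not analysed here, because no probe set carried that symbol alone. The family was chosen by its Igfbp3 intensities in the antibody and control arrays, which were already known, so the values below describe that contrast. They do not independently support it.

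Testis RNA came from male Sprague Dawley rats, an outbred laboratory strain. The labels name no engineered allele. The FSH antibody group received an antibody raised in sheep against rat FSH for 4 days, and the control IgG group received sheep immunoglobulin for the same time. Each group was measured on 2 arrays (Affymetrix rat U34, set A), each with its own RNA sample, 4 arrays in all. The labels disagree on age: the series design starts injections at day 14, the treatment protocol starts them at day 18 with collection at day 22, and the source names give day 18. Antibody replicate 2 carries a title that names postnatal day 4, and its group was taken from its source name and treatment protocol. The protocol speaks of pools of about 20 ovaries, whereas every source name says testis and numbers a single rat. How many animals stand behind each array is therefore not settled, and p-values cover no more than the spread between these extracts, which may be technical.

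The IGF ligands are small secreted growth factors. They act through the receptor tyrosine kinase Igf1r, while Igf2r, which is also the mannose 6-phosphate receptor, takes up IGF-II for degradation. The binding proteins hold IGFs in the extracellular fluid and control how much reaches the receptor. In blood IGFBP-3 is the main carrier, in a complex with the acid-labile subunit encoded by Igfals. In the testis IGFs act as local growth factors, and FSH acts on Sertoli cells, the cells that support the germ cells.

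Among the binding protein genes of the rat, Igfbp1 and Igfbp3 are neighbours on chromosome 14 and point towards each other, and Igfbp2 and Igfbp5 are neighbours on chromosome 9 in the same arrangement. The start regions of the first pair are printed because Igfbp3 differed between the groups and its neighbour Igfbp1 had values near the bottom of the scale. Each run is the 250 bases before the annotated start, 5′ to 3′ on the gene's own strand, from RefSeq (GRCr8). The Igfbp3 window is chr14:86277945-86278194 on the minus strand and the Igfbp1 window is chr14:86261027-86261276 on the plus strand. Capitals mark every match to the motifs named after the sequences.
Igfbp3: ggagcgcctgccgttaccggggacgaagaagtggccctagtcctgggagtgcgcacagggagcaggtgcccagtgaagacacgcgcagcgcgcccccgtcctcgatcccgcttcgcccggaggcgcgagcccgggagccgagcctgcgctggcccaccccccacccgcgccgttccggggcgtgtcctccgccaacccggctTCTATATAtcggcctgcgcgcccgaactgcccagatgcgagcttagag
Igfbp1: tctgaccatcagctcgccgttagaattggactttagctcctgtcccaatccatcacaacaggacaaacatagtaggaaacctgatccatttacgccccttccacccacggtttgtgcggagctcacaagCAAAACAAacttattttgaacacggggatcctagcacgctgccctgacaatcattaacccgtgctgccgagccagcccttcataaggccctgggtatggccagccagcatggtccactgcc

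These windows were searched on both strands for TGACGTCA (the cAMP response element), TGACG (its half-site, contained in the full element), GGGCGG (the GC box), TATANA (for the TATA-type box) and CAAAACAA, which opens the insulin response element of the Igfbp1 promoter, bound by FoxO factors. The motifs were chosen with the expression values known. The Igfbp3 window holds overlapping matches to TATANA between bases -48 and -41 from the start, a motif in 24.2% of 33465 rat windows of the same length. The Igfbp1 window holds CAAAACAA between bases -121 and -114, a motif in 1.94% of windows. In the Igf1 window CAAAACAA spans bases -67 to -60. TGACGTCA, in 1.59% of all windows, was not found in any of the 11 windows of the 10 genes, and TGACG, in 18.2%, was found in that of Igf2r alone. A match is a run of letters and not a measured binding site, and a missing match says only that these letters are not in this window.

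Igfbp3 had higher intensity on both antibody arrays than on both control arrays, on each of its probe sets. Probe set M31837_at read 400.2 and 325.3 on the antibody arrays, against 141.2 and 91.4 on the control arrays. Its groups do not overlap. The means were 363 ± 53.0 in the antibody group and 116 ± 35.2 in the control group (SD, n = 2 each), a ratio of 3.12. Setting single arrays against each other gave ratios from 2.30 to 4.38. On the log2(intensity + 16) scale used for every difference here, which understates changes of dim probe sets, the antibody minus control difference was 1.54 ± 0.22 (SE), with an adjusted p of 0.0368 by limma over all 5244 tested probe sets.

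The second Igfbp3 probe set, rc_AI009405_s_at, read 119.7 and 106.7 on the antibody arrays, against 24.6 and 10.3 on the control arrays. The groups were again separate. The means were 113 ± 9.19 in the antibody group and 17.5 ± 10.1 in the control group (SD, n = 2 each), and the log2 difference was 1.98 ± 0.24 (limma, adjusted p = 0.0153). This probe set entered the test through the antibody arrays: its mean log2 value was 7.01 there and 5.03 in the controls, where the filter on dim probe sets stood at 5.31. Its control values were low enough for the added constant to shape the result, and the log2 difference was 2.74 with a constant of 1 and 1.13 with a constant of 64. The first probe set gave 1.66 and 1.25 with these constants.

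On the log2 scale the Igfbp3 values were closer together on the antibody arrays than on the control arrays, whereas the linear intensities of M31837_at had the larger SD on the antibody arrays. The gap between the 2 antibody arrays was 0.29 for M31837_at and 0.15 for rc_AI009405_s_at on the log2 scale, against 0.55 and 0.63 between the 2 control arrays. Control replicate 1 was the higher control on both probe sets, and antibody replicate 1 the higher antibody array. Both probe sets therefore ranked the 4 arrays in the same order.

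**Figure D1:**
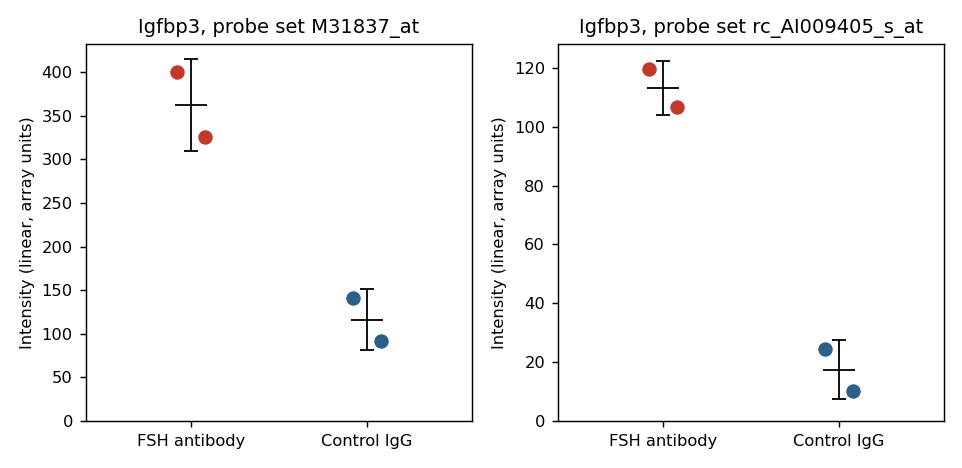
Linear intensity of the Igfbp3 probe sets on each array, FSH antibody left and control IgG right, with points for arrays and bars for mean ± SD (n = 2). On M31837_at the antibody arrays read 400.2 and 325.3 and the controls 141.2 and 91.4, and on rc_AI009405_s_at the antibody arrays read 119.7 and 106.7 and the controls 24.6 and 10.3.

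The adjusted call of Igfbp3 depended on the treatment of all probe sets together, and the size of its difference on the arrays kept. Leaving out control replicate 1 gave 1.81 and 2.29 for M31837_at and rc_AI009405_s_at, and leaving out control replicate 2 gave 1.26 and 1.67. Without antibody replicate 1 the differences were 1.39 and 1.91, and without antibody replicate 2 they were 1.68 and 2.05. Each of these fits leaves 1 array in a group, so only the differences are given here. With quantile normalization the differences were 1.54 and 1.94 (limma, adjusted p = 0.113 and 0.0618), and with no filter on dim probe sets both adjusted p-values were 0.224. With each array centred on its median, M31837_at gave 1.49 (adjusted p = 0.0708) and rc_AI009405_s_at 1.93 (adjusted p = 0.0332). The direction was fixed by the groups not overlapping and so says nothing of stability.

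**Figure D2:**
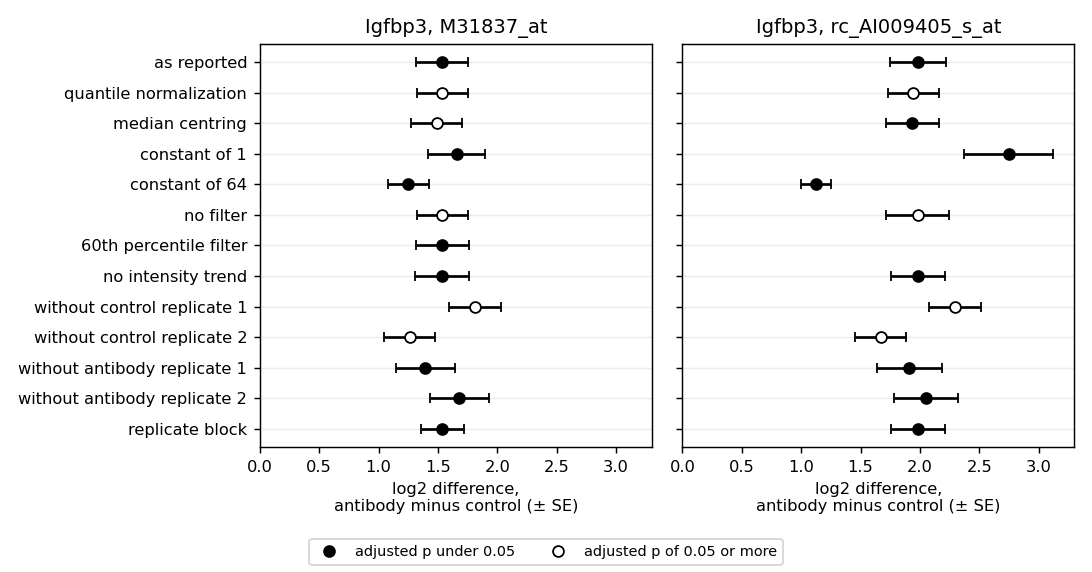
Antibody minus control log2 difference (± SE) of both Igfbp3 probe sets under each processing setting. Filled points passed an adjusted p of 0.05 by limma and open points did not. Fits without 1 array leave 1 array in a group, so only their differences are to be read, not their fill or SE. M31837_at ranges from 1.25 to 1.81 and rc_AI009405_s_at from 1.13 to 2.74; rc_AI009405_s_at was too dim to be tested at the 60th percentile filter.

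The other binding proteins gave no call. Igfbp2, a carrier made by many fetal and adult tissues, had bright and overlapping values on all 3 of its probe sets. J04486_at read 568.9 and 562.7 on the antibody arrays, against 525.4 and 585.2 on the control arrays (log2 difference 0.028 ± 0.16). A09811cds_s_at read 376.0 and 469.8 on the antibody arrays, against 377.0 and 389.3 on the controls (0.13 ± 0.18), and M91595exon_s_at read 483.7 and 642.5 against 481.4 and 639.4 (0.0067 ± 0.21). The last of these differed more between arrays of 1 group than between the groups. Igfbp6, which prefers IGF-II over IGF-I, read 644.0 and 497.0 on the antibody arrays, against 549.6 and 720.3 on the control arrays. Its groups overlap, with a log2 difference of -0.15 ± 0.20 (limma, adjusted p = 0.894).

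Igfbp1 and Igfbp5 lay below the filter, so they were not tested. Igfbp1, known as a liver protein that insulin suppresses, read 2.9 and 4.6 on the antibody arrays, against 2.6 and 2.9 on the controls. Igfbp5, which also binds extracellular matrix, read between 2.6 and 15.0 on the antibody arrays and between 0.7 and 14.7 on the controls over its 3 probe sets. These probe sets did not move together: M62781_at was lower on both antibody arrays, rc_AI070577_at was higher on both, and rc_AI029920_s_at overlapped. No detection calls were used, so whether such values stand above background cannot be told. Of the adjacent gene pairs, Igfbp3 and Igfbp2 were thus the members that passed the filter, and Igfbp1 and Igfbp5 did not.

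**Figure D3:**
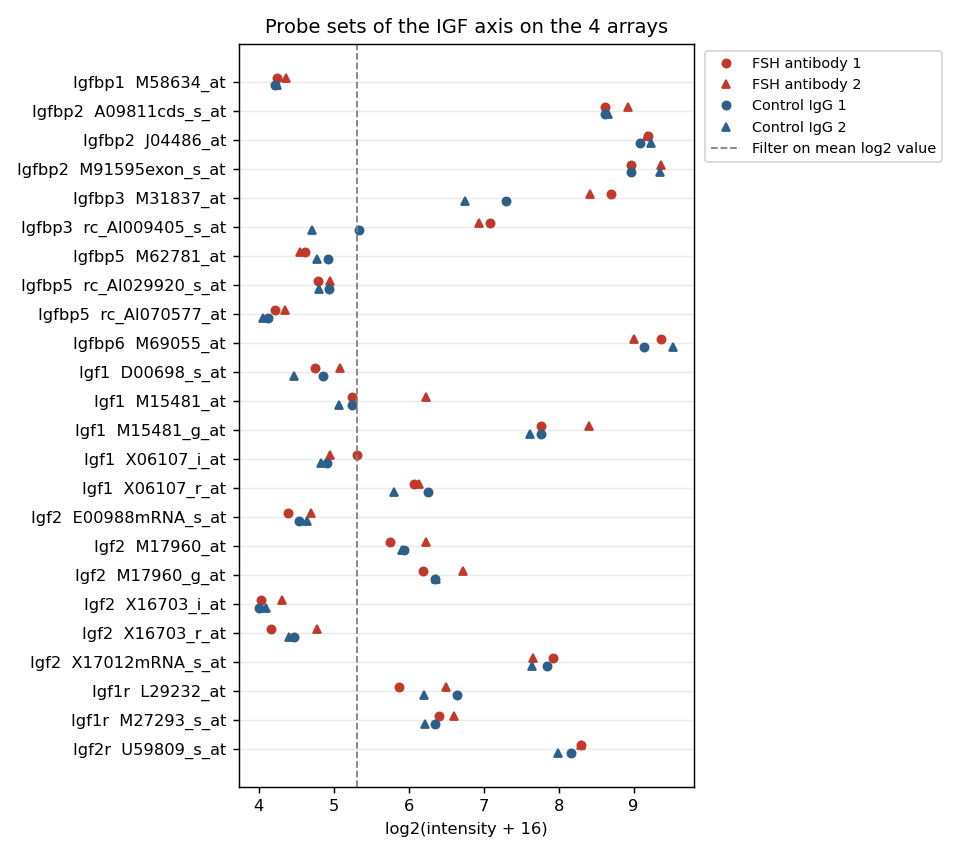
log2(intensity + 16) of the 24 member probe sets on each array; colour marks the group, symbol the replicate, and the dashed line the filter at 5.31 on the mean of the 4 arrays. Rows are different probes and are not to be compared with each other; within a row, both Igfbp3 probe sets show separate groups, and antibody replicate 2 lies to the right of the other arrays on both Igf1 probe sets designed from M15481.

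The ligand Igf1 had 5 probe sets, of which 3 passed the filter and none was called. M15481_g_at read 202.3 and 321.8 on the antibody arrays, against 201.7 and 181.3 on the controls (log2 difference 0.39 ± 0.22, limma adjusted p = 0.713). M15481_at, designed from the same sequence, read 21.9 and 59.3 on the antibody arrays, against 21.9 and 17.6 on the controls (0.58 ± 0.31, adjusted p = 0.682). On both, antibody replicate 2 was high and antibody replicate 1 was at the level of control replicate 1. Without antibody replicate 1 the difference of M15481_at was 1.08, and without antibody replicate 2 it was 0.087. M15481_at also entered the test through the antibody group, with a mean log2 value of 5.74 there and 5.16 in the controls. A probe set designed from another sequence, X06107_r_at, read 51.4 and 54.2 on the antibody arrays, against 60.8 and 39.9 on the controls (0.070 ± 0.21). Its groups overlap. The 2 probe sets below the filter read 23.9 and 14.9 on the antibody arrays, against 14.1 and 12.4 on the controls (X06107_i_at), and 11.0 and 17.9 against 13.1 and 6.2 (D00698_s_at).

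Igf2, an imprinted growth factor of fetal tissues, had 6 probe sets, of which 3 were tested. X17012mRNA_s_at read 227.7 and 185.2 on the antibody arrays, against 213.6 and 184.2 on the controls (log2 difference 0.047 ± 0.18). M17960_at read 38.0 and 59.0 on the antibody arrays, against 45.6 and 44.4 on the controls (0.061 ± 0.22). M17960_g_at, from the same sequence, read 57.4 and 89.8 on the antibody arrays, against 65.9 and 66.3 on the controls (0.10 ± 0.21). All 3 overlap between the groups. On the M17960 pair, as for Igf1, antibody replicate 2 was the highest array, and the controls lay between the antibody arrays. The 3 probe sets below the filter, E00988mRNA_s_at, X16703_i_at and X16703_r_at, read between 0.3 and 11.4 on the antibody arrays and between 0.1 and 9.0 on the controls, with overlapping groups on each.

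Of the 6 tested ligand probe sets, the M15481 and M17960 pairs had a wide spread between the antibody arrays. The log2 gap between antibody replicates 1 and 2 was 0.99 for M15481_at, 0.63 for M15481_g_at, 0.53 for M17960_g_at and 0.47 for M17960_at. Over all tested probe sets the median gap was 0.20 between the antibody arrays and 0.19 between the control arrays. The control gaps of the same 4 probe sets were 0.17, 0.14, 0.0070 and 0.028. Igf1 X06107_r_at had the opposite pattern, with a gap of 0.059 between the antibody arrays and 0.46 between the control arrays. The gaps of Igf2 X17012mRNA_s_at were 0.28 and 0.20.

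The receptor transcripts gave no call. Igf1r, the signalling receptor, had opposite differences on its probe sets. L29232_at read 42.5 and 74.2 on the antibody arrays, against 84.5 and 58.1 on the controls (log2 difference -0.25 ± 0.25, limma adjusted p = 0.860). M27293_s_at read 68.9 and 81.1 on the antibody arrays, against 65.6 and 58.7 on the controls (0.22 ± 0.18, adjusted p = 0.836). The first overlaps between groups and the second does not. Igf2r, measured by U59809_s_at alone, read 298.1 and 297.5 on the antibody arrays, against 272.1 and 238.8 on the controls. Its groups are separate by a small margin, with a log2 difference of 0.21 ± 0.17 (limma, adjusted p = 0.823).

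Of the 24 member probe sets, 15 passed the filter, from 7 genes. By limma 2 of the 15 were called, both of Igfbp3 and both higher in the antibody group, where 0.267% of all tested probe sets were called in either direction and 0.114% as higher. Groups did not overlap in 5 of the 15, all with higher antibody values, where 37.4% of all tested probe sets were separate, 21.9% in that direction and 15.5% in the other. Both counts lean on probe sets that passed the filter through the antibody arrays and on a family picked for this contrast, so nothing is read from them. Without Igfbp3 the 13 remaining probe sets had a median log2 difference of 0.070, within a range from -0.25 to 0.58, beside 0.029 over all tested probe sets.

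Ordered by log2 difference, the Igfbp3 probe sets came first, with a gap of 0.45 between them and a combined SE of 0.32. The next gap, between M31837_at and Igf1 M15481_at, was 0.95 with a combined SE of 0.38. Every later gap between neighbours was 0.19 or less and smaller than its combined SE. The combined SE takes neighbouring probe sets as independent, although all were read on the same arrays. It therefore does not settle the order, which was not tested.

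**Figure D4:**
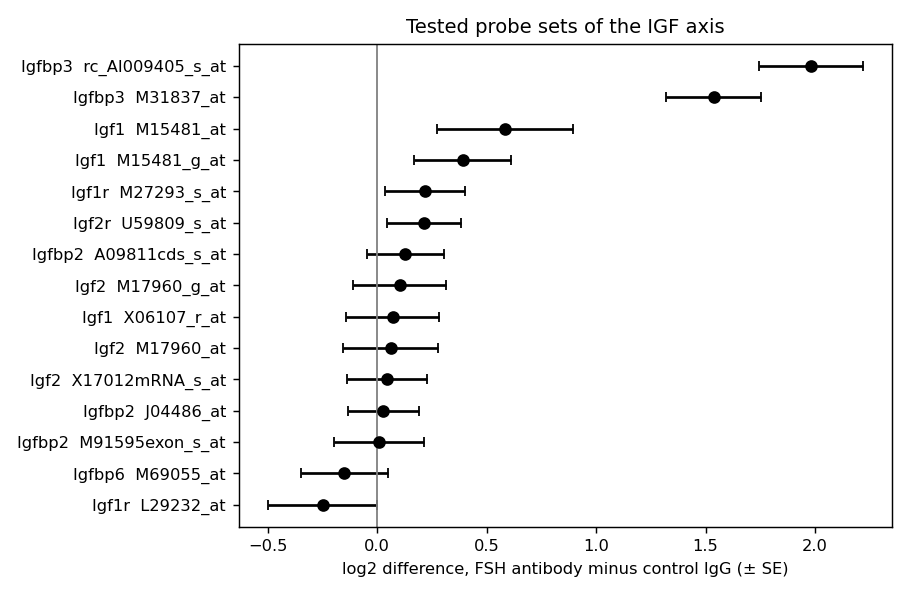
Antibody minus control log2 difference (± SE) of the 15 tested probe sets of the IGF axis, from highest to lowest. The Igfbp3 probe sets stand at 1.98 and 1.54, and the other 13 lie between -0.25 and 0.58.

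The genes around the axis were taken as a list of 59 genes of growth hormone, insulin and IGF signalling, of which 42 were on the array under a single symbol and 31 had a tested probe set. None of the 59 tested probe sets was called by limma, against 0.267% of all tested. By unadjusted p, 5 fell under 0.05 with higher and 1 with lower antibody values, where 3.97% and 4.14% of all tested probe sets did so, 8.10% in all. The list's median log2 difference was 0.13, beside 0.029 over all tested probe sets.

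Igfals, whose product joins IGFBP-3 and IGF in the blood complex, gave log2 differences of 0.043 ± 0.18, 0.14 ± 0.18 and 0.35 ± 0.26 on its 3 probe sets. Its values on rc_AA924289_s_at were 51.1 and 54.7 on the antibody arrays, against 25.4 and 54.4 on the controls, so the low value there was that of control replicate 1. The insulin receptor Insr gave 0.22 ± 0.25 and the adaptor Irs1 0.29 ± 0.21. All probe sets of the growth hormone receptor Ghr and of the adaptor Irs2 were too dim to be tested.

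At the top of the list stood Ptpn1, a phosphatase that acts on the insulin receptor, with 148.9 and 108.4 on the antibody arrays of rc_AI112391_s_at, against 93.6 and 67.0 on the controls (log2 difference 0.59 ± 0.21, limma adjusted p = 0.541). Its groups were separate, but its other tested probe sets gave between -0.054 and 0.12. The Ins1 probe set E00001cds_i_at followed at 0.58 ± 0.31, with 24.2 and 64.7 on the antibody arrays against 20.9 and 23.1 on the controls. Other tested Ins1 probe sets gave -0.19 ± 0.21 and 0.0041 ± 0.17. The adaptor Grb2 came next, on D49847_at, at 0.52 ± 0.21. Ins1 and Ins2 are near-identical insulin genes, so their probe sets may share signal, and another Grb2 probe set gave -0.26 ± 0.18.

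At the bottom stood the kinase Akt2, which acts downstream of the insulin and IGF receptors, with 65.6 and 37.9 on the antibody arrays of rc_AI105076_s_at, against 88.6 and 98.2 on the controls (log2 difference -0.72 ± 0.22, limma adjusted p = 0.440). Its other probe set, D30041_at, gave 0.18 ± 0.19. The transcription factor Stat3 gave -0.30 ± 0.21, and the lysosomal protease Ctsd -0.28 ± 0.17 and -0.12 ± 0.16 on its 2 probe sets. None of these genes passed, and where a gene had several probe sets they often differed in sign.

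**Figure D5:**
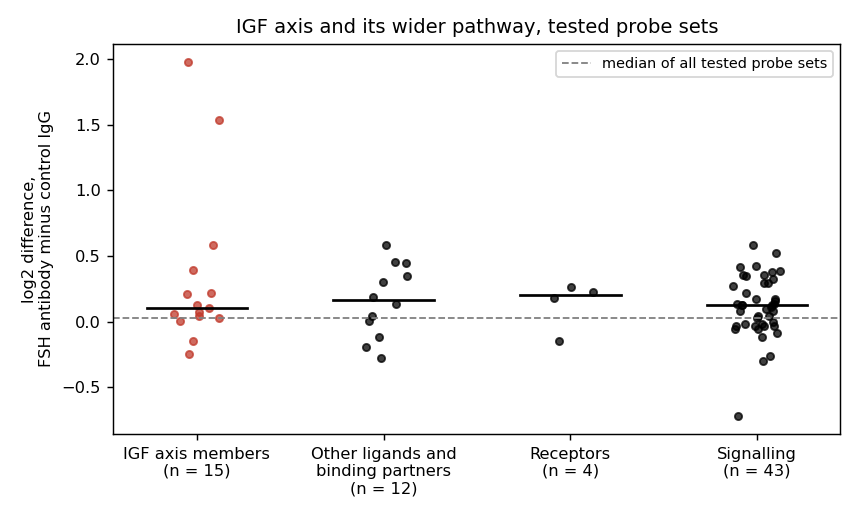
Antibody minus control log2 difference of each tested probe set (points) for the IGF axis and for 3 parts of the wider pathway list, with medians as bars; the dashed line is the median of all tested probe sets, 0.029. Only the Igfbp3 points lie above 0.60.

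Genes whose values over the 4 arrays lay nearest to Igfbp3 were found by the root mean square distance between centred log2 values, where the Igfbp3 probe sets themselves lay 0.11 from their mean profile. The nearest was Testin, a secreted Sertoli cell protein, at a distance of 0.31. It read 114.4 and 127.9 on the antibody arrays, against 28.2 and 33.1 on the controls. Foxq1, a forkhead transcription factor, lay at 0.32, Edn1, the precursor of endothelin 1, at 0.42, the glutathione transferase Gsta3 at 0.43 and Renbp, a renin-binding protein, at 0.47. Testin and Foxq1 were called higher (limma, adjusted p = 0.0153 and 0.0306), and Edn1, Gsta3 and Renbp were not called. With 4 arrays in 2 groups this measure finds genes with a like difference between the groups, and nothing more is read from it.

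Markers of the cells that the samples could hold were summed over their probe sets on each array. The endothelial sum was 502.8 and 576.9 on the antibody arrays, against 400.0 and 431.4 on the controls, over 14 probe sets of 8 genes, of which 7 were tested. Of these 7, 4 were separate and higher in the antibody group, 1 was separate and lower and 2 overlapped, and none was called. Over all tested probe sets 37.4% were separate, 21.9% higher and 15.5% lower, shares that apply beside each such count below. Edn1 had the largest difference of the 7, with 88.1 and 89.8 on the antibody arrays against 38.3 and 34 on the controls. Flt1 read 72.6 and 95.9 on the antibody arrays against 55.8 and 63.3 on the controls, and Nos3 AF110508_at 65.7 and 47.4 against 27.8 and 45.5. The log2 difference of Nos3 was 0.47 ± 0.23 on that probe set. It was 0.098 ± 0.18 on AJ011115_g_at and -0.033 ± 0.19 on U02534_at, which overlapped. Cav1 was the separate and lower one, with 62.7 and 61.8 against 66.5 and 75.1. The defining marker Pecam1 overlapped, with 41.9 and 33.1 against 36.4 and 31.7. The Leydig cell sum was 2801.4 and 3022.8 on the antibody arrays, against 3672.7 and 3702.6 on the controls, over 16 probe sets of 8 genes. Of the 14 tested Leydig probe sets, 7 were separate and lower in the antibody group, 5 were separate and higher and 2 overlapped. By limma 1, of Star, was called lower, as were 0.153% of all tested probe sets. The 7 were all probe sets of Star, Fdx1 and Scarb1. The log2 differences were -0.93 ± 0.19 and -0.64 ± 0.22 for Fdx1, and -0.30 ± 0.18, -0.56 ± 0.18 and -0.79 ± 0.18 for Scarb1. By unadjusted limma p, 6 fell under 0.05 as lower and 2 as higher, where 4.14% and 3.97% of all tested probe sets did so. Among the 5 separate and higher ones were Cyp11a1, with 185.1 and 121.3 on the antibody arrays against 104.6 and 95.1 on the controls, and Lhcgr M61211cds_s_at, with 72.6 and 72.9 against 51.6 and 45.9. The log2 difference of Lhcgr was 0.46 ± 0.18 there, 0.24 ± 0.21 on M26199_s_at and -0.22 ± 0.20 on Z33403_at, which overlapped. The macrophage and immune sum was 551.8 and 768 on the antibody arrays, against 538.6 and 546.7 on the controls, over 19 probe sets of 8 genes. Of its 9 tested probe sets, 3 were separate and higher in the antibody group, 1 was separate and lower and 5 overlapped, and none was called. A higher mean log2 value in the antibody group was seen in 7 of the 9, and in 2898 of all 5244 tested probe sets. The list's median log2 difference was 0.30, against 0.029 over all tested probe sets. The lysozyme gene Lyz2 read 120.8 and 138.1 on the antibody arrays against 100.1 and 62.8 on the controls (log2 difference 0.60 ± 0.22, limma adjusted p = 0.534). The separate and lower one was C1qb X71127_at, with 18.7 and 17.3 against 31.3 and 49.2 (-0.71 ± 0.23, limma adjusted p = 0.485). C1qb X71127_g_at gave 0.063 ± 0.26. No probe set of these 3 lists was listed at 0 on all arrays. The peritubular sum was 7443.3 and 5951.4 on the antibody arrays, against 6590.6 and 7059.4 on the controls. Of its 16 tested probe sets, 3 were separate and higher, 2 separate and lower and 11 overlapped. The Sertoli cell sum was 11680.8 and 12449.4 against 12487.7 and 12521.2, and it was dominated by 1 Clu probe set, with 6439.6 and 7459.2 against 6776.2 and 6770. Of the 18 tested Sertoli probe sets, 4 were separate and higher, 5 separate and lower and 9 overlapped. By limma 1, of Testin, was called higher, as were 0.114% of all tested probe sets. The spermatogonia sum was 3838.8 and 3851.2 against 3880.6 and 3650.3. Of its 12 tested probe sets, 3 were separate and higher, 2 separate and lower, 7 overlapped and none was called. The erythroid sum was 2039.9 and 2349.1 against 2201.5 and 3722. Of its 5 tested probe sets 4 overlapped, and 1, of Alas2, was separate and lower. Alas2 was called (log2 difference -1.38 ± 0.21, limma adjusted p = 0.0423), as were 0.153% of all tested probe sets in that direction. The part of any of these in the Igfbp3 difference was not tested, and in whole testis RNA a change in cell number and a change in RNA per cell cannot be told apart.

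As checks on the samples, the filter was passed by 8 of 9 probe sets of spermatocyte genes and 8 of 11 of spermatid genes. Over all probe sets 5244 of 8740 passed. The spermatid genes Odf1 and Tnp2 did not pass and read between 0.8 and 3.6, so the counts do not show that spermatids were present. Within groups the spermatocyte sum differed, with 1696 and 1091.6 on the antibody arrays, against 1361.5 and 2180 on the controls. Ldhc read 143.6 and 41.3 against 41.6 and 333.6, and Sycp2 117.1 and 104.6 against 121.5 and 93.8. The Leydig enzyme Cyp17a1 read 1361.0 and 1653.3 on the antibody arrays, against 1730.4 and 1651.1 on the controls. Among genes of FSH action in Sertoli cells, Shbg, the androgen-binding protein, gave a log2 difference of -0.66 ± 0.16 (limma, adjusted p = 0.218). The FSH receptor Fshr gave 0.30 ± 0.22 on L02842_g_at (limma, adjusted p = 0.805), with overlapping groups. The inhibin subunit Inha gave -0.90 ± 0.19 and -0.49 ± 0.24 on its probe sets (limma, adjusted p = 0.122 and 0.632), so none of these 3 genes passed the test. Testin did pass, with a log2 difference of 1.56 ± 0.18 (limma, adjusted p = 0.0153). For Star, the cholesterol transfer protein of Leydig cells, AB006007_s_at gave -1.49 ± 0.23 (adjusted p = 0.0423) and AB001349_at gave -1.38 ± 0.25 (adjusted p = 0.0655). The log2 ratio of 3′ to 5′ signal of beta-actin, a measure of RNA integrity, was 1.21 and 1.10 on the antibody arrays, against 1.15 and 0.87 on the controls. The same ratio for Gapdh was -0.069 and -0.080 on the antibody arrays, against 0.058 and -0.16 on the controls. Both ratios overlap between the groups.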

How the data were processed

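The deposited values were linear intensities, 1 per probe set and array, from total testis RNA of 4 samples labelled with biotin, per the labels' protocols. The steps and software behind them are not given in sources used here. With 2% trimmed from each end, all 4 arrays had a mean of 125, so the authors had scaled the arrays to a common level. The scale is therefore linear, and the background correction stays unknown. Array medians lay between 36.5 and 40.4. Precision is limited by the number of arrays.

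Probe sets were named through the platform annotation, 7018 with 1 symbol (6994 updated by Entrez identifier through RefSeq, GRCr8), 308 with several and 1473 with none. Of 8799 probe sets, 59 controls were left out. Values were analysed as log2(intensity + 16), and probe sets with a mean at or above the 40th percentile were tested (5244). The test was two-sided, by limma 3.58.1 in R 4.3.3 (lmFit, then eBayes with an intensity trend), and p-values were adjusted over all tested probe sets by Benjamini and Hochberg's method with a threshold of 0.05. With 2 arrays against 2 an exact permutation test cannot give a p below 0.333, so none was run. The functions were tested on simulated data.

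The members, lists and motifs were chosen with earlier results of these data known. Named in the text are all members, the 3 highest and 3 lowest probe sets of the pathway list, Igfals, Ghr, Insr, Irs1 and Irs2, the 5 nearest profiles to Igfbp3, and Fshr, Inha, Shbg, Star and Testin; other markers, further probe sets of a named gene and the genes beside them were added after their values were seen. Alternatives were quantile normalization, median centring, constants of 1 and 64, a 60th percentile filter and none, no intensity trend, leaving out each array, and the replicate number as a block.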

Additional observations from a re-analysis of the deposited data

How the results depend on the processing

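Of the 15 tested member probe sets, 6 kept their direction in every alternative in which they were tested, and 9 turned in at least 1, none of them called. Among the 6 were the 5 whose groups do not overlap, which leaving out an array cannot turn. In the other, Igf1 M15481_at, the lower antibody array and the higher control array both read 21.9. The count therefore says little of stability. With median centring the differences of Igfbp2 J04486_at (-0.019) and M91595exon_s_at (-0.041) and of Igf2 X17012mRNA_s_at (-0.0011) turned. Dropping 1 array leaves 1 residual degree of freedom, and the single array of that group is taken to vary as the other group does. It gave ranges that crossed 0 for Igfbp2 A09811cds_s_at (-0.026 to 0.28), J04486_at (-0.047 to 0.10) and M91595exon_s_at (-0.19 to 0.21). They also crossed 0 for Igfbp6 (-0.34 to 0.041), Igf1 X06107_r_at (-0.16 to 0.30), Igf2 M17960_at (-0.18 to 0.30), M17960_g_at (-0.16 to 0.37) and X17012mRNA_s_at (-0.092 to 0.18), and Igf1r L29232_at (-0.56 to 0.064).

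Against 14 called probe sets (6 higher, 8 lower, 2 of them members), quantile normalization and no filter each called 0 by limma in either direction and 0 members, with 424 and 702 at an unadjusted p under 0.05. Median centring called 4 (3 higher, 1 lower, 1 of them a member) and had 135 higher and 273 lower at an unadjusted p under 0.05, where the values as reported had 208 and 217. The lower calls numbered 4 with a constant of 1, 5 with a constant of 64 and 4 without an intensity trend. The 60th percentile filter called 1 member, since rc_AI009405_s_at was no longer tested. Dropping 1 array brought 0 to 151 calls (0 to 34 higher, 0 to 118 lower), 0 to 3 called members and 0 to 2 called probe sets of the pathway list. The filters change which probe sets are tested, and a dropped array leaves fewer residual degrees of freedom for the same probe sets. Beyond that, the cause was not tested. The pathway list's median stayed between 0.080 and 0.19, where that of all tested probe sets lay between -0.018 and 0.060. With no filter these medians were 0.083 and 0.060.

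The replicate numbers did not pair the samples: the deviations of like-numbered arrays correlated at 0.0024 over the tested probe sets. With the replicate block 39 probe sets were called (12 higher, 27 lower), 2 of them members. No measure of signal over background was used, which limits what the dim probe sets of Igfbp1, Igfbp5, Igf1 and Igf2 can show.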
